A study of Mus musculus with 6 samples.

Results

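Potassium channel genes were described as all genes of the deposited table whose symbol begins with Kcn and a letter from a to v. Of 55335 genes in the table, 99 symbols had this form. The 5 that name antisense or opposite-strand RNAs (Kcnab3os, Kcnd3os, Kcnmb4os1, Kcnmb4os2 and Kcnq1ot1) were left out, which gave 94 members in 16 subfamilies, all annotated as protein coding. The rule used the symbol and no measured value, but it was set with earlier results of these data known. RNA came from primary mouse cultures labelled GABAergic interneurons, which inhibit their targets, prepared from wild-type C57BL/6 embryonic brain at embryonic day 14.5. An adeno-associated virus (AAV) was applied to all 6 samples for 12 hours, with a scrambled hairpin in 3 (the group AAV-scramble) and a hairpin directed at Brpf1 in the other 3 (AAV-shbrpf1). The target, Brpf1, is a scaffold protein of histone acetyltransferase complexes, and the study asks what its role is in interneurons of the medial ganglionic eminence, a zone of the ventral forebrain where many of them are born. One label field calls the source neural progenitor cells, and the sources used here give neither the time from infection to harvest nor the share of infected cells. The labels do not tell whether samples within a group are separate cultures or animals. The p-values therefore rest on the spread between these samples alone, and that spread may be technical.

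Potassium channels let potassium ions leave or enter a cell along their gradient, and so set the resting potential, end the action potential and fix how fast a neuron can fire again. The pore is built from voltage-gated (Kv) subunits, from calcium- or sodium-activated subunits, from inward rectifiers (Kir) or from subunits with a pair of pore domains (K2P). Auxiliary subunits such as the Kv beta, KChIP, MinK and BK beta proteins bind a pore and alter its gating or its transport to the membrane. Cortical interneurons that fire fast are known for Kv3 channels, which close quickly, and glial cells for the inward rectifier Kcnj10.

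What the pore-forming members share at the level of sequence is the signature of the selectivity filter, the stretch that holds the ions: threonine or serine, then valine, isoleucine or leucine, then glycine, then tyrosine, phenylalanine or leucine, then glycine. This pattern was widened after a narrower form had missed some K2P and Kv members. It was read from the coding sequence of the GENCODE M21 transcripts, in frame only. It stood in 77 of 77 pore-forming members and in 0 of 17 auxiliary and regulatory members. Over all 21584 genes with a coding sequence the share was 1.34% (290 genes, the 77 among them). The widening was made on these members, so their full share was partly set by that choice. In 12 K2P members the signature stood in the coding sequence at least 2 times. The stretches below belong to 6 pore-forming members that are described further down as having wide ranges between replicate numbers. Each stretch lies within 1 exon. Kcnk9 holds the signature 2 times, and the first whose stretch lies within 1 exon is shown. Each is 45 bases of coding sequence of GRCm38 in the sense of the gene, 5′ to 3′, with the 15 bases that encode the signature in capitals.
Kcna3: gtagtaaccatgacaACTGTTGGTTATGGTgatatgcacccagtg
Kcnh7: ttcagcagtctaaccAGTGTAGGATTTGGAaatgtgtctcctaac
Kcnh3: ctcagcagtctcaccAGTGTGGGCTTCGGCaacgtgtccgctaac
Kcnn3: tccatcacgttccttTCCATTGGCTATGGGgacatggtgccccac
Kcnj4: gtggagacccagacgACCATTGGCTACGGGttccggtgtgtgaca
Kcnk9: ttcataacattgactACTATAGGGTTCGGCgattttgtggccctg

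The Kcna3 stretch lies at chr3:107037596-107037640 on the plus strand, in the only exon of its transcript, and that of Kcnn3 at chr3:89645497-89645541 on the plus strand, in exon 4 of 8. In the EAG family it was found at chr2:62777328-62777372 for Kcnh7 (minus strand, exon 8 of 16) and at chr15:99232914-99232958 for Kcnh3 (plus strand, exon 8 of 15). For the inward rectifier Kcnj4 it was at chr15:79485352-79485396 (minus strand, exon 2 of 2). For the K2P gene Kcnk9 it was at chr15:72512704-72512748 (minus strand, exon 2 of 2). Kcnh7 and Kcnh3 encode the same 5 residues there and differ in 4 of the 15 capital bases and in 9 of the 45.

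Steps between low values put the depth at 13.1 to 21.1 M fragments per library. It was lowest in AAV-shbrpf1 number 2, which also had the fewest genes above 0 (18780, against 22621 to 26132 in the others). Brpf1, the target of the hairpin, was at 3.29, 5.45 and 4.84 FPKM under the scrambled hairpin and at 3.13, 4.58 and 3.78 FPKM under its own hairpin, a difference within the spread between replicates (exact two-sided permutation p = 0.4, where 3 samples against 3 allow no p below 0.1). Within the pairs of libraries with one replicate number it was lower under its own hairpin in 3 of 3, by -0.055, -0.21 and -0.29 on the log2(FPKM + 1) scale. With the number as a replicate block the difference was -0.18 ± 0.10 (SE; limma unadjusted p = 0.127, adjusted p = 1). FPKM is the number of fragments relative to transcript length and library depth, and the values of a group are always given in the order of the replicate numbers 1, 2 and 3. All 8 interneuron markers were detected, with summed levels of 639 to 1098 FPKM in AAV-scramble and 674 to 909 FPKM in AAV-shbrpf1. Markers of other cells were present too: the 9 radial glia and astrocyte markers summed to 415 to 1025 and 382 to 1075 FPKM, and the 6 markers of the oligodendrocyte lineage to 112 to 279 and 129 to 262 FPKM. The 4 glutamatergic markers summed to at most 0.843 FPKM and the 5 microglial markers to at most 0.371 FPKM, with Cx3cr1 at 0 in every library. These are bulk samples, so fewer cells of a type and less RNA per cell cannot be told apart.

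Levels of the members ran from 0 to 45.1 FPKM. Of the 94, 44 were at or above 1 FPKM in every library, 72 were above 0 in every library, and 18 never exceeded 0.1 FPKM. Kcnj4, Kcnj10, Kcnc1, Kcnd2, Kcnab2 and Kcnk9 averaged above 10 FPKM over the 6 libraries, and 21 members averaged above 5 FPKM. The 10 most abundant held 47.7% of the summed member FPKM. Their order moved between libraries: 18 members were among the top 10 of at least 1 library, and Kcnc1, Kcnd2 and Kcnj10 were in the top 10 of every one. By subfamily, the inward rectifiers held 19.8% of the sum, K2P 12.6%, Kv3 12.0%, Kv1 8.56%, Kv4 7.98%, KChIP 6.16%, the EAG family 6.11% and Kv beta 5.79%. Kv7 held 4.94%, the Slo family 4.16%, the silent Kv subunits 3.78%, the small-conductance (SK) channels 1.85%, BK beta 1.80%, the MinK family 1.67% and Kcnrg 0.142%. Summed over all members the level was 328 ± 29.3 FPKM (SD, n = 3) with AAV-scramble and 333 ± 19.7 FPKM with AAV-shbrpf1, and the groups overlapped.

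**Figure D1:**
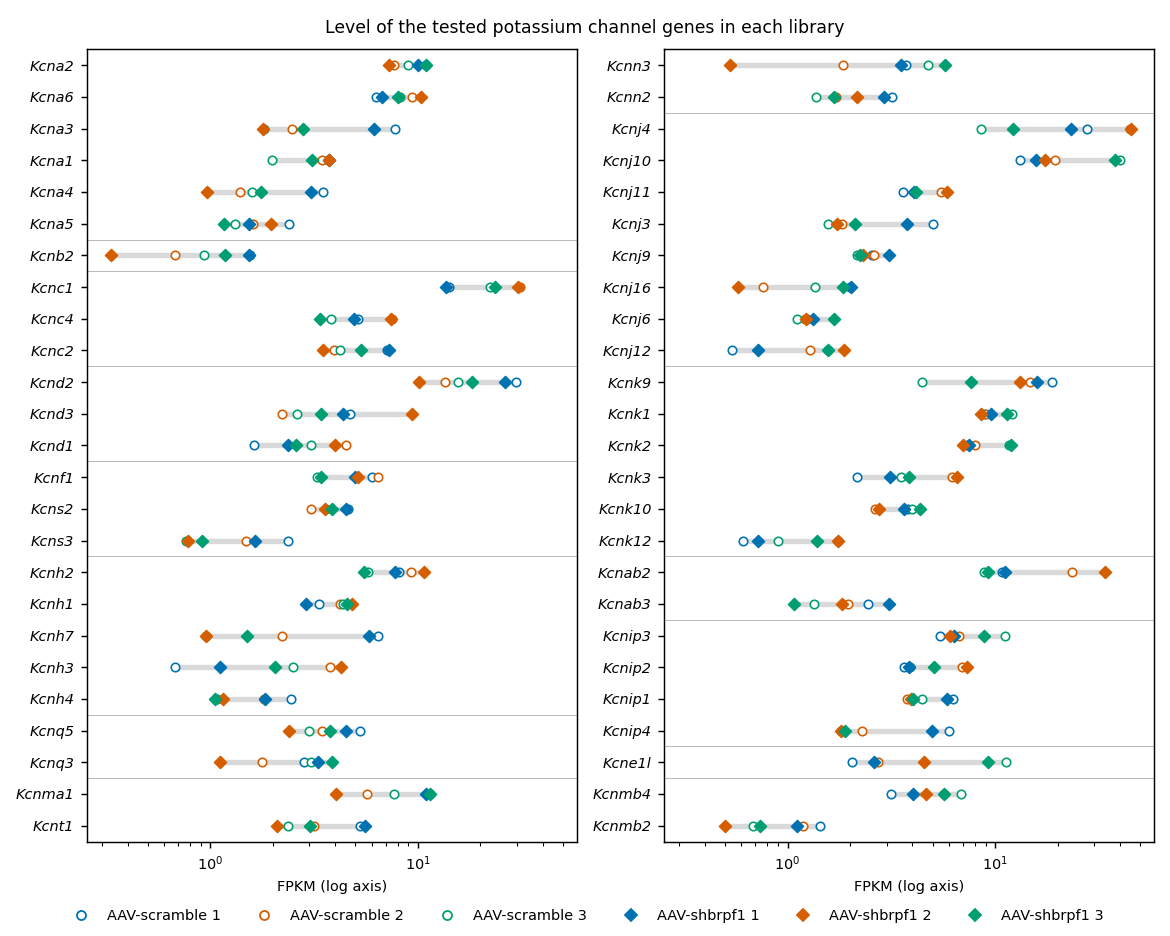
FPKM of 50 tested members in each of the 6 libraries (log axis), by subfamily and, within it, by mean level. Circles are AAV-scramble and diamonds AAV-shbrpf1, colours are replicate numbers, and grey bars span the lowest to the highest library. Circle and diamond of one colour lie close together for most genes, while colours lie apart, as for Kcnj4 with number 2 at 44.8 and 45.1 FPKM; Kcnd3 is an exception.

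The main comparison asked which potassium channel genes differ with the hairpin against Brpf1. No member passed the test, and no gene of the table did. The test was limma on log2(FPKM + 1) for the 12792 genes whose mean reached 1 FPKM in either group. Among them were 54 members, while the other 40 were too low. At an adjusted p under 0.05, 0 of 54 members were called, against 0% of all genes. At an unadjusted p under 0.05 it was 0 of 54, against 0.18% of all genes (23). The 2 groups overlapped in every one of the 54, so that 0 lay wholly higher (0.578% of all genes) and 0 wholly lower (0.492%). Differences ran from -0.24 for Kcnn3 to 0.63 for Kcnd3. Of the 54, 31 were above 0 and 23 below, with a median of 0.02, and all tested genes had a median of -0.02. The member median was -0.047, -0.024 and -0.012 without AAV-scramble replicate 2, AAV-scramble replicate 3 and AAV-shbrpf1 replicate 1, respectively. Over libraries numbered 1, 2 and 3 the median member difference was -0.02, -0.07 and 0.09.

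Libraries of the same replicate number resembled each other across the groups, and with the number as a replicate block still 0 of 54 members passed (0% of all genes). At an unadjusted p under 0.05 with the replicate block, 1 of 54 passed, against 2.19% of all genes. Within the 3 pairs of libraries with one number, 9 of 54 members were higher with AAV-shbrpf1 in 3 of 3 (16.7%, against 7.15% of all genes), among them Kcna1, Kcnj6, Kcnj11, Kcnj12, Kcnk3, Kcnk12, Kcnab2 and Kcnip2. Kcnc4 and Kcnh4 were lower in 3 of 3 pairs (2 of 54, 3.70%, against 11.3% of all genes). These counts carry no test of their own. The pair differences of those named as higher ran from close to 0 for Kcnk12 to 0.50 for Kcnab2. Those of the lower genes ran from -0.39 to -0.016, both for Kcnh4.

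The 4 members of smallest p above 0 were Kcnd3, Kcna1, Kcnj6 and Kcnj12, and the 4 below 0 were Kcnmb2, Kcnh4, Kcns3 and Kcnf1. None passed. Kcnd3 is a pore subunit of the A-type current, which opens below threshold and delays firing. It was at 4.71, 2.23 and 2.62 FPKM under the scrambled hairpin and at 4.36, 9.37 and 3.41 FPKM under the Brpf1 hairpin. A single library, AAV-shbrpf1 number 2, stood above all others, and the remaining 5 overlapped. It is the library of lowest depth and fewest genes above 0. The difference was 0.63 ± 0.39 (SE; 95% interval -0.28 to 1.54; limma adjusted p = 1), and by pair it was -0.090, 1.68 and 0.29. Without AAV-shbrpf1 replicate 2 it was 0.26. Kcnd3os, an RNA from the opposite strand of this gene, was at 0.329 to 0.825 FPKM, and reads of the pair cannot be told apart if strand was not used.

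Kcna1 encodes an axonal subunit that opens at low voltage, and Kcnj6 and Kcnj12 encode inward rectifiers. Their differences were 0.18 ± 0.26, 0.13 ± 0.21 and 0.16 ± 0.31 (SE). Those of Kcna1 and Kcnj12 turned to -0.023 and -0.053 without AAV-scramble replicate 3 and AAV-scramble replicate 1, respectively. On the other side, Kcnmb2, a BK beta subunit, differed by -0.23 ± 0.25 and Kcnh4, an EAG family pore, by -0.23 ± 0.28. Kcnmb2 reached the filter of 1 FPKM through its AAV-scramble mean alone, which favours a difference below 0. Kcns3 and Kcnf1, silent subunits that modify Kv2 channels, differed by -0.24 ± 0.31 and -0.15 ± 0.30. The 95% intervals of these 8 members all included 0. These SEs and intervals are of the fit without the replicate block, so they hold the spread between numbers. With the block the SEs were 0.13 for Kcna1, 0.13 for Kcnj6 and 0.13 for Kcnj12, and the 8 intervals also included 0.

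**Figure D2:**
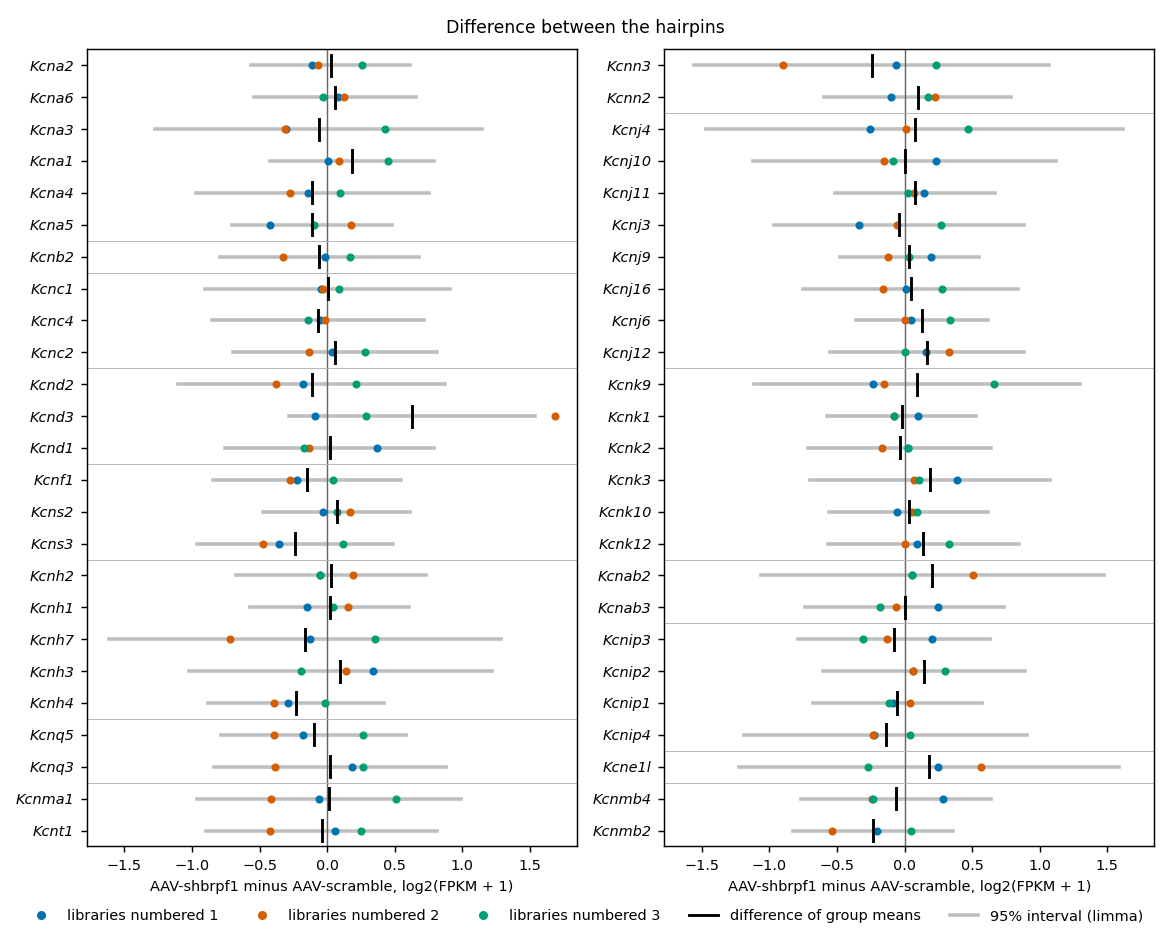
Difference AAV-shbrpf1 minus AAV-scramble on the log2(FPKM + 1) scale for 50 tested members, by subfamily. Black ticks are differences of group means, and coloured points the differences within each replicate number. Grey bars are 95% intervals from limma without the replicate block, so they hold the spread between numbers. All 50 intervals include 0, and the points of Kcnd3 lie far apart at -0.090 and 1.68.

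Kv3 channels open at high voltage and close fast, which allows trains of brief spikes. Kcnc1, the most abundant of them, was at 14.2, 31.05 and 22.2 FPKM under the scrambled hairpin and at 13.7, 30.3 and 23.6 FPKM under the Brpf1 hairpin. It was highest in the libraries numbered 2, and the groups overlapped. Kcnc4 was at 5.13, 7.53 and 3.82 and at 4.91, 7.44 and 3.38 FPKM, again with both number 2 libraries on top. Kcnc2, which labels many somatostatin and parvalbumin interneurons in the adult, was at 7.11, 3.94 and 4.23 and at 7.30, 3.49 and 5.34 FPKM, highest in number 1. Each of these genes differed between replicate numbers by limma's F test on both libraries of each number (adjusted over all tested genes). For Kcnc1 the means of the numbers spanned 1.08 on the log2 scale (adjusted p = 0.00244), for Kcnc4 0.89 (adjusted p = 0.00420) and for Kcnc2 0.80 (adjusted p = 0.0105).

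Kv1 channels sit on axons and hold back repetitive firing. Kcna2 was at 10.9, 7.66 and 8.95 FPKM under the scrambled hairpin and at 10.02, 7.25 and 10.9 FPKM under the Brpf1 hairpin, and Kcna6 at 6.31, 9.38 and 8.22 and at 6.74, 10.3 and 8.04 FPKM. Kcna2 did not pass the test between numbers (range 0.44, adjusted p = 0.0525, limma F), and Kcna6, highest in number 2, did (range 0.53, adjusted p = 0.0176). Kcna3, best known from T cells and also found in neurons, was at 7.81, 2.48 and 1.82 and at 6.14, 1.80 and 2.80 FPKM. Both number 1 libraries lay at 6.14 FPKM or more and every other library at 2.80 FPKM or less, and its range over numbers was 1.34 (limma F, adjusted p = 0.00560). Without AAV-scramble replicate 1 the adjusted p was 0.0693. Kcna1 was at 3.71, 3.47 and 2.00 and at 3.73, 3.75 and 3.10 FPKM, with a range over numbers of 0.43 that did not pass (adjusted p = 0.0871). Kcna4 and Kcna5 averaged 2.05 and 1.67 FPKM, while Kcna10 never exceeded 0.106 FPKM and Kcna7 was close to 0 throughout.

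Kv2 channels carry the slow delayed rectifier of the cell body. Kcnb2 was low, at 1.55, 0.674 and 0.930 FPKM under the scrambled hairpin and at 1.53, 0.331 and 1.18 FPKM under the Brpf1 hairpin, and both number 1 libraries were on top. The silent subunits form no channel of their own and modify Kv2. Kcnf1 was at 5.99, 6.41 and 3.28 and at 4.99, 5.14 and 3.41 FPKM, Kcns2 at 4.62, 3.07 and 3.64 and at 4.50, 3.56 and 3.88 FPKM. Kcns2 was among the 3 members with the smallest ranges over numbers, 0.37. Kcns3 was at 2.37, 1.48 and 0.767 and at 1.64, 0.786 and 0.916 FPKM, with AAV-scramble number 1 on top. The 7 other silent genes did not reach the filter, led by Kcng1 at 0.961 and Kcnv1 at 0.714 FPKM on average.

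Kv4 channels carry the A-type current together with KChIP calcium sensors. Kcnd2, the fourth most abundant member, was at 29.8, 13.5 and 15.6 FPKM under the scrambled hairpin and at 26.2, 10.2 and 18.2 FPKM under the Brpf1 hairpin. Number 1 was highest in both groups, and the range over numbers was 1.19 (limma F, adjusted p = 0.00450). Kcnd1 was at 1.63, 4.49 and 3.06 and at 2.38, 3.99 and 2.60 FPKM, with both number 2 libraries on top. All 4 KChIP genes were measured and all 4 differed between numbers, against 69.4% of all genes. Kcnip3, also known as a calcium-dependent repressor of transcription, was at 5.41, 6.68 and 11.1 and at 6.36, 6.03 and 8.81 FPKM, highest in number 3. Kcnip2 was at 3.64, 6.94 and 3.91 and at 3.86, 7.30 and 5.05 FPKM, highest in number 2. The remaining KChIP genes were highest in number 1: Kcnip1 at 6.28, 3.78 and 4.42 and at 5.86, 3.93 and 4.02 FPKM, and Kcnip4 at 6.00, 2.29 and 1.82 and at 4.98, 1.80 and 1.90 FPKM. Summed over the 4, KChIP came to 20.8 ± 0.923 and 20.0 ± 1.01 FPKM (SD, n = 3).

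The EAG family comprises slow voltage-gated channels, among them the ERG channels that damp excitability. Kcnh2, the main ERG gene, was at 8.13, 9.24 and 5.75 FPKM under the scrambled hairpin and at 7.81, 10.7 and 5.51 FPKM under the Brpf1 hairpin, and Kcnh1 at 3.33, 4.20 and 4.37 and at 2.90, 4.804 and 4.54 FPKM. Kcnh2 was highest in number 2 in both groups, while Kcnh1 differed little between numbers and did not pass (range 0.42, adjusted p = 0.0514, limma F). Kcnh7, another ERG gene, was at 6.47, 2.22 and 0.954 and at 5.85, 0.954 and 1.502 FPKM, so both number 1 libraries were at 5.85 FPKM or more and the others at 2.22 FPKM or less. Its relative Kcnh3 ran the other way, at 0.673, 3.77 and 2.50 and at 1.12, 4.25 and 2.06 FPKM, lowest in number 1 and highest in number 2. The ranges over numbers were 1.69 and 1.41 (limma F, adjusted p = 0.00540 and 0.00380). The call of Kcnh7 was lost without AAV-scramble replicate 1 (adjusted p = 0.0543) and without AAV-shbrpf1 replicate 1 (0.0547), with ranges of 1.72 and 1.67. Kcnh4 averaged 1.57 FPKM, and Kcnh5, Kcnh6 and Kcnh8 were under the filter.

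Kv7 channels carry the M-current, a slow brake on firing that acetylcholine releases. Kcnq3, a subunit of the M-channel, was at 2.82, 1.77 and 3.07 FPKM under the scrambled hairpin and at 3.33, 1.11 and 3.88 FPKM under the Brpf1 hairpin. Both number 2 libraries were lowest, and it differed between numbers (range 0.88, adjusted p = 0.0186, limma F). Kcnq5 was at 5.25, 3.46 and 2.98 and at 4.53, 2.40 and 3.79 FPKM, with both number 1 libraries on top, and did not pass (range 0.59, adjusted p = 0.0664). Kcnq1, the cardiac and epithelial member, never exceeded 0.1 FPKM.

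Channels opened by calcium or sodium shape the afterpotential. Kcnma1, the pore of the large-conductance BK channel, was at 11.4, 5.72 and 7.70 FPKM under the scrambled hairpin and at 10.9, 4.05 and 11.4 FPKM under the Brpf1 hairpin, lowest in both number 2 libraries. Its neuronal beta subunit Kcnmb4 was at 3.14, 5.68 and 6.89 and at 4.04, 4.65 and 5.70 FPKM, highest in number 3. Kcnmb2 was at 1.43, 1.18 and 0.682 and at 1.11, 0.501 and 0.739 FPKM, and Kcnmb1, the beta subunit of smooth muscle, was listed at 0 in every library. The sodium-activated Kcnt1 was at 5.30, 3.16 and 2.38 and at 5.55, 2.10 and 3.02 FPKM, highest in number 1. Among SK channels, which follow calcium entry with a slow hyperpolarisation, Kcnn3 was at 3.71, 1.85 and 4.73 and at 3.51, 0.527 and 5.73 FPKM. Both number 2 libraries were lowest, AAV-shbrpf1 most of all, and the range over numbers was 1.57 (limma F, adjusted p = 0.00976). Kcnn2 was at 3.19, 1.71 and 1.37 and at 2.90, 2.16 and 1.67 FPKM, highest in number 1. Kcnn1 averaged 0.584 FPKM and Kcnn4, the channel of blood and epithelial cells, was close to 0.

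Inward rectifiers hold the resting potential, and 8 of the 15 genes reached the filter. Kcnj4, a strong rectifier of neurons, was the most abundant member: 27.9, 44.8 and 8.52 FPKM under the scrambled hairpin and 23.2, 45.1 and 12.2 FPKM under the Brpf1 hairpin. Number 2 was highest and number 3 lowest in both groups, and the range over numbers was 2.04 (limma F, adjusted p = 0.00244). By the estimated depth and the longest annotated transcript, the Kcnj4 values stand for roughly 381 to 2036 fragments a library, against 19 to 73 for Kcnmb2. Kcnj10, the chief potassium channel of astrocytes and oligodendrocytes, was at 13.2, 19.4 and 40.1 and at 15.8, 17.4 and 37.7 FPKM. Both number 3 libraries, at 37.7 FPKM or more, lay above the others, at 19.4 FPKM or less, with a range of 1.37 (adjusted p = 0.00244). The oligodendrocyte markers summed to 112, 222 and 279 FPKM in the AAV-scramble and to 129, 210 and 262 FPKM in the AAV-shbrpf1 libraries, highest in number 3 as well. The largest part of that sum was Olig1, at 58.9, 131 and 179 and at 69.4, 127 and 161 FPKM. Of the 6 markers, 4 were highest in number 3 and 2, Sox10 and Cspg4, in number 2. The radial glia and astrocyte markers summed to 1025, 415 and 1014 and to 1075, 382 and 986 FPKM, lowest in number 2. The largest part of the latter sum was Fabp7, at 730, 187 and 581 and at 758, 169 and 570 FPKM. Of the 8 markers of this list that differed between numbers, 5 (Slc1a3, Aldoc, Sparcl1, Nes and S100b) were highest in number 3, as Kcnj10 was. The other 3 (Fabp7, Gfap and Aqp4) were highest in number 1, and 0 in number 2. The part of either marker list in the level of Kcnj10 was not tested. Kcnj16, which joins Kcnj10 in one channel, was low at 2.00, 0.764 and 1.36 and at 2.03, 0.580 and 1.86 FPKM and lowest in number 2.

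Kcnj11, the pore of channels that close when ATP is plentiful, was at 3.59, 5.52 and 4.07 and at 4.06, 5.84 and 4.15 FPKM, and its vascular relative Kcnj8 was listed at 0 in every library. G-protein-gated rectifiers mediate slow inhibition through GABA-B and other receptors. Of these, Kcnj3 was at 5.04, 1.84 and 1.57 FPKM under the scrambled hairpin and at 3.78, 1.73 and 2.10 FPKM under the Brpf1 hairpin, highest in number 1. Kcnj9 was at 2.57, 2.61 and 2.17 and at 3.09, 2.32 and 2.25 FPKM, Kcnj6 at 1.25, 1.22 and 1.12 and at 1.32, 1.22 and 1.67 FPKM. The latter genes had the smallest ranges over numbers of all tested members, 0.25 and 0.099, and neither passed (adjusted p = 0.325 and 0.842, limma F). The fourth of the group, Kcnj5, known from the heart, stayed under 0.1 FPKM. Kcnj12 was at 0.541, 1.28 and 1.57 and at 0.723, 1.87 and 1.57 FPKM, lowest in number 1. Kcnj1, the channel of the kidney tubule, was listed at 0 throughout.

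K2P channels carry the leak that holds a neuron at rest. Their sum varied little, at 41.5 ± 3.46 FPKM with AAV-scramble and 41.6 ± 0.562 FPKM with AAV-shbrpf1 (SD, n = 3). Kcnk9, an acid-sensitive leak channel, was at 18.8, 14.7 and 4.46 and at 15.9, 13.2 and 7.64 FPKM, lowest in both number 3 libraries (range 1.41, adjusted p = 0.00708, limma F). Kcnk3, its closest relative, was at 2.15, 6.22 and 3.51 and at 3.12, 6.56 and 3.85 FPKM and highest in number 2. Kcnk1 was at 8.81, 9.08 and 12.1 and at 9.51, 8.55 and 11.4 FPKM, with both number 3 libraries on top. Number 3 was also highest for Kcnk2, a stretch-sensitive channel, which was at 7.37, 8.02 and 11.7 and at 7.52, 7.04 and 11.9 FPKM, and its relative Kcnk10 averaged 3.53 FPKM. All 6 tested K2P genes differed between numbers, against 69.4% of all genes. Of these 6, 1 was highest in number 1, 2 in number 2 and 3 in number 3. The other 8 K2P genes, among them Kcnk16 and Kcnk18, were under the filter.

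The auxiliary genes outside KChIP and BK beta were few. Kcnab2, the main beta subunit of Kv1 channels in brain, was at 10.8, 23.6 and 8.86 FPKM under the scrambled hairpin and at 11.2, 33.8 and 9.25 FPKM under the Brpf1 hairpin. Both number 2 libraries, at 23.6 FPKM or more, stood above the rest, at 11.2 FPKM or less, with a range of 1.54 (limma F, adjusted p = 0.00244). Kcnab3 was at 2.44, 1.95 and 1.34 and at 3.10, 1.82 and 1.07 FPKM, highest in number 1, and Kcnab1 averaged 0.927 FPKM. In the MinK family Kcne1l, a small inhibitory subunit, was at 2.04, 2.74 and 11.3 and at 2.62, 4.54 and 9.23 FPKM, with both number 3 libraries at 9.23 FPKM or more and the others at 4.54 FPKM or less (range 1.76, adjusted p = 0.00339). The 4 other MinK genes stayed at or below 0.146 FPKM. Kcnrg, which keeps Kv1 subunits from assembling, averaged 0.470 FPKM.

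Most members differed between replicate numbers. By limma's F test over 3 numbers with 2 libraries each, 43 of 54 members differed (79.6%, against 69.4% of all genes): 17 were highest in number 1, where 34.2% of all genes were, 15 in number 2 (18.7%) and 11 in number 3 (16.5%). What these numbers mark (a day, a litter or a batch) is not in the labels. The range over numbers had a median of 0.77 for members and 0.73 for all genes. It exceeded the size of the hairpin difference in 52 of 54 members and in 12473 of all 12792 tested genes, a similar share. The range spans 3 means of 2 libraries and the hairpin difference 2 means of 3. Kcnd3 and Kcnj6 were the exceptions among members. Members of one subfamily differed in the number of their highest level: the EAG family had 2 genes in number 1 and 2 in number 2, and the inward rectifiers 2 in each number. Scaling the libraries by the median ratio moved the difference of number 2 minus number 1 over all genes from a median of -0.25 to -0.01, and the split of 40 called members to 14, 19 and 7. Of the 43, Kcnj12 and Kcnmb4 then had another highest number. With 1 library fewer the count was 17 without AAV-scramble replicate 1 and 22 without AAV-shbrpf1 replicate 1.

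**Figure D3:**
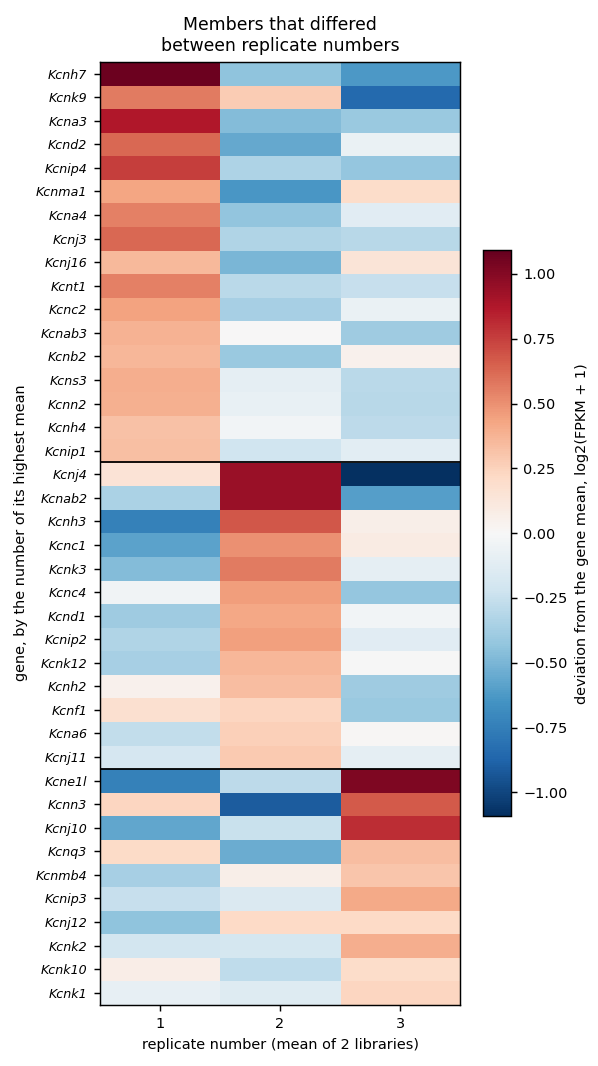
Mean log2(FPKM + 1) of both libraries of each replicate number, as the deviation from the mean of the gene, for 40 of the members that differed between numbers. Genes are grouped by the number of their highest mean (17, 13 and 10 genes, parted by black lines) and ordered by range; red is above and blue below the mean of the gene.

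The differences of number 2 from the other numbers went with the GC content of the transcripts, that between 1 and 3 less so. Members highest in number 2 had a median GC content of 59.1% (range 53.3% to 69.4%), those highest in number 1 of 45.7% and those highest in number 3 of 51.2%. Over all tested genes the corresponding medians were 56.2%, 44.3% and 49.0%. Across the 54 members the difference of number 2 minus number 1 had a Spearman rho of 0.67 with GC content, and across 12785 genes 0.77. For number 3 minus number 2 rho was -0.57 and -0.67, and for number 3 minus number 1 it was 0.21 and 0.49. Genes of one library share its preparation and depth and are not replicates, so these are descriptions. Of the 27 members at or above the median GC content of 52.1%, 19 were higher in number 2 than in number 1, and of the 27 below it 22 were lower. Kcna3 stood apart, with 60.3% GC and its highest level in number 1.

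A smooth trend on GC content was also subtracted from each library, an alternative added after seeing the data. After it, 28 of 54 members differed between numbers, and 5428 of the 12785 genes with a GC content. Of the 43 members called before, 25 remained and 32 kept the number of their highest level. Another number was then highest for Kcnb2, Kcnc4, Kcnf1, Kcnh2, Kcnip4, Kcnj11, Kcnj16, Kcnk10, Kcnk12, Kcnk9 and Kcnmb4. The ranges of Kcnj4 and Kcnab2 were then 1.69 and 1.24, still highest in number 2. The range of Kcna3 was 2.02, that of Kcnj10 1.32 and that of Kcne1l 1.59. Kcnd2 no longer passed, with a range of 0.45 (limma F, adjusted p = 0.0508), that of Kcnh3 was 0.69, and Kcnk9 was then highest in number 2. Kcnj9, not called before, passed with 0.65 (adjusted p = 0.0302). No member passed the comparison of the hairpins after this subtraction. Marker lists moved with the numbers too: the cycling markers summed to 27.0, 12.5 and 24.2 and to 31.4, 10.3 and 26.1 FPKM, and the 4 fibroblast markers to 28.0, 0.216 and 0.352 and to 11.9, 0.218 and 0.393 FPKM. Their part in the differences of the members was not tested.

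**Figure D4:**
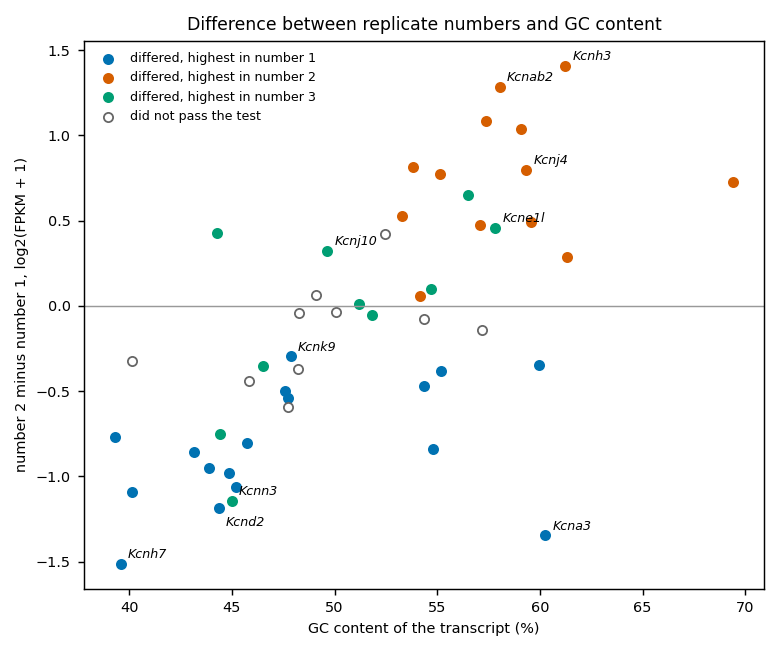
Difference of replicate number 2 minus number 1 on the log2(FPKM + 1) scale against the GC content of the transcript in percent, for 50 tested members. Colours give the number of the highest mean for the 40 that passed limma's F test, and open circles the others; points lie higher towards the right, with Kcna3 at the lower right as an exception.

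The filter at 1 FPKM lay among members of similar level. Just inside it were Kcnmb2, with group means of 1.10 and 0.783 FPKM, and Kcnb2, with 1.05 and 1.01 FPKM, and just outside it Kcng1, with 0.952 and 0.971 FPKM, and Kcnab1, with 0.930 and 0.925 FPKM. Kcnmb2 passed through its AAV-scramble mean alone. The 3 members at 0 in every library were Kcnj1, Kcnj8 and Kcnmb1. Of the 94 members, 42 overlap another annotated gene and 37 an opposite-strand one, and reads from these cannot be told apart if strand was not used.

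Partners of the channels, such as calmodulin, scaffold and accessory membrane proteins, were followed in a list of 25 genes, 21 of which were tested. None was called higher or lower with AAV-shbrpf1 (0 of 21 at an adjusted p under 0.05, and 0 of 21 at an unadjusted one, limma), and the median difference was -0.04. Between numbers 15 of the 21 differed, close to the share of all genes (69.4%). Of the 21, 11 differed and were highest in number 1, against 34.2% of all genes. The calmodulin gene Calm3 was the most abundant, at 394, 393 and 319 FPKM under the scrambled hairpin and at 425, 355 and 295 FPKM under the Brpf1 hairpin. Calm2 followed at 367, 148 and 276 and at 398, 144 and 295 FPKM. Gnb1, a G-protein subunit that opens the G-protein-gated rectifiers, was at 135, 110.1 and 111 and at 121, 102 and 109 FPKM. Calm2 was lowest in both number 2 libraries. Amigo1, which sits with Kv2 channels and is named here after its values were seen, was at 10.6, 3.73 and 2.40 and at 10.9, 3.10 and 2.73 FPKM. It was highest in both number 1 libraries.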

How the data were processed

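Paired-end RNA sequencing of 6 samples was analysed from a single table of values per gene and sample. The authors deposited no unit name; the deposited values are read as FPKM, since they are not whole and their sums differ between libraries. FastQC, StringTie, DESeq2 and the build mm9 are named without roles in the submitters' processing notes, while 54899 of 55154 identifiers found in GENCODE M21 have its GRCm38 coordinates, which are used here. The sources used here give no aligner, filter or strand use. FPKM depends on the transcripts counted.

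Depth (13.1 to 21.1 M fragments) was estimated from FPKM steps of 11673 single-exon genes of at least 400 nt. Between 40.1% and 44.1% of low values lay on whole steps (tolerance 0.03), so whole reads were not recovered and a test on the log scale replaced one on counts.

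Genes with a group mean of at least 1 FPKM (12792) were tested on log2(FPKM + 1), which understates changes of low genes. The test was that of limma (version 3.58.1, R 4.3.3), two-sided, with a mean-variance trend and no covariates. A gene was called where its p, adjusted by Benjamini and Hochberg over all of them, was under 0.05; the method was tested on simulated data. The 3 replicate numbers were compared with limma's F test. Deviations from the group means correlated at 0.87, 0.83 and 0.57 between libraries of one number. Numbers therefore pair the samples, by the values and not by the labels. Between other libraries the deviations correlated at 0.00 or below. Deviations within a group cancel out for each gene, which largely forces those values, so they add nothing to the pairing.

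The members and lists were chosen with earlier results of these data known. Named genes are up to 4 of highest mean per subfamily; the 4 of smallest p in each direction between the hairpins; per number the 4 of widest range, with the 3 of smallest range; 2 on each side of the filter; and the most abundant partners. Some members that these rules name, and 1 further stretch of sequence, are not reported here or drawn. Alternatives were another pseudocount, filter, scaling or spread model, the replicate block, leaving out libraries, and, chosen after seeing the data, the GC trend. GC content is that of the longest GENCODE M21 transcript.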

Additional observations from a re-analysis of the deposited data

How the results depend on the processing

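No member passed between the hairpins under any alternative run, and Brpf1 kept its direction wherever it was tested. The median member difference, 0.02 as reported, was -0.047 to 0.066 with 1 library left out and -0.028 to 0.054 with 1 pair left out of the fit with the replicate block, so its direction turned in some of these; under the other alternatives it stayed above 0. Over all genes that count was also 0, except that with the replicate block and without one pair it ran from 0 to 3 (without replicate 3 it was 1). The replicate block changed no other call. Members differing between numbers, 43 as reported, were 26 without a filter, 21 with a filter at 5 FPKM and 28 with the GC trend subtracted; leaving out 1 library gave 17 to 41. Over all genes, 8876 as reported, the corresponding counts were 5493 with the filter at 5 FPKM, 5428 with the GC trend subtracted, and 4786 to 8655 without 1 library. Without a filter 7194 of all genes differed between numbers. Fewer genes pass a stricter filter by construction, and a number left with 1 library is assumed to vary like the others. The cause of the other changes was not tested. Of the 8 named differences between hairpins, leaving out 1 library turned 3: Kcna1 ran from -0.023 (without AAV-scramble replicate 3) to 0.30, Kcnj12 from -0.053 (without AAV-scramble replicate 1) to 0.38 and Kcnf1 from -0.40 to 0.0022 (without AAV-shbrpf1 replicate 3). Of the 15 named ranges over numbers, Kcnh7 (without either number 1 library), Kcna3 (without AAV-scramble replicate 1), Kcnd2 (GC trend) and Kcnn3 (no filter) no longer passed, and Kcnj9 passed with the GC trend subtracted.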

Other observations

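The 5 RNAs left out of the members were low in every library. Kcnd3os, from the strand opposite Kcnd3, was the most abundant, at 0.825, 0.393 and 0.329 FPKM under the scrambled hairpin and at 0.7003, 0.472 and 0.723 FPKM under the Brpf1 hairpin. Kcnab3os averaged 0.453 FPKM and was listed at 0 in AAV-scramble number 2 alone. Kcnmb4os2 averaged 0.409 FPKM, and Kcnmb4os1 was above 0 in AAV-scramble number 3 alone, at 0.0961 FPKM. Kcnq1ot1, the long RNA from the imprinted Kcnq1 locus, was at 0.487, 0.116 and 0.0706 and at 0.463, 0.0559 and 0.115 FPKM. It was highest in both number 1 libraries, while Kcnq1 itself never exceeded 0.1 FPKM in any library.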
